A study of Mus musculus with 16 samples.

Results

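The erythroid genes described here are Alas2, Slc4a1, Klf1, Epb42, Ahsp and the adult globins Hba-a1, Hba-a2, Hbb-bs and Hbb-bt. They were chosen by name from their levels by tissue in these same libraries, with the precursor genes (all but the globins) set against the globins and the spleen set against the other 7 tissues, so every level by tissue given below is a description with no test. Of the 9 genes, 8 were found by symbol among the 55385 genes of the count table (4 precursor genes and 4 globins), and Ahsp was not analysed here. Short-read RNA-Seq was made from muscle, liver, white adipose tissue, brown adipose tissue, heart, spleen, kidney and lung of male C57BL/6 mice, acquired at 12 weeks of age, that were either fed without restriction or held without food for 24 h (fasting). Tissue from the 3 mice of a treatment was pooled before extraction, so each of the 16 groups of tissue and treatment is 1 library and no value has a replicate error. All groups share strain and sex. The question was which genes change with fasting in each organ.

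Red blood cells arise from erythroblasts, which in adult mice develop in the bone marrow and also in the red pulp of the spleen. An erythroblast makes heme in its mitochondria, a pathway whose first and rate-limiting step is run by Alas2 in erythroid cells and by its relative Alas1 in other cells, and joins heme to pairs of alpha and beta globin chains. Klf1 is the erythroid Krüppel-like transcription factor that binds CACCC boxes, the best known of them in the beta-globin promoter. Slc4a1 encodes band 3, the anion exchanger of the red cell membrane, and Epb42 encodes protein 4.2, which ties band 3 to the membrane skeleton. Ahsp is a chaperone of free alpha globin. Reticulocytes, the youngest red cells of the blood, have lost their nucleus but still hold globin mRNA, so blood itself carries it. In bulk tissue, fewer cells of a type and less RNA per cell cannot be told apart.

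The 4 promoters of the genes on which the results turn are shown here because the ratio of the precursor Alas2 to the globins left its usual range in liver and the share of Hbb-bt among the beta globins left its own in spleen. Each run is the 250 bases before the RefSeq start site on GRCm38.p6, read in the direction of the gene. Capitals mark the CACCC motif, the form AGATAA of the GATA-factor motif and the CCAAT box, on either strand. A motif on the other strand appears as its reverse complement. Other forms of the GATA-factor motif, such as TGATAA, were not searched and stand in lower case.
Alas2: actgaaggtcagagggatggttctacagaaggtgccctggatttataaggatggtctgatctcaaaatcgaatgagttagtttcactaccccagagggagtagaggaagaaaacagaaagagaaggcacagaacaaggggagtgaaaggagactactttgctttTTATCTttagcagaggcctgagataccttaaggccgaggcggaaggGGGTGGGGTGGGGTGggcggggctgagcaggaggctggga
Hba-a1: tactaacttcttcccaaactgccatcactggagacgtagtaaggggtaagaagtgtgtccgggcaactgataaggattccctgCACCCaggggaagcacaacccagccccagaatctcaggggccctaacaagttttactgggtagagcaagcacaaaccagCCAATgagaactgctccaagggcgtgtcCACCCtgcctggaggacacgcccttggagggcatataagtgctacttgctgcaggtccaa
Hbb-bs: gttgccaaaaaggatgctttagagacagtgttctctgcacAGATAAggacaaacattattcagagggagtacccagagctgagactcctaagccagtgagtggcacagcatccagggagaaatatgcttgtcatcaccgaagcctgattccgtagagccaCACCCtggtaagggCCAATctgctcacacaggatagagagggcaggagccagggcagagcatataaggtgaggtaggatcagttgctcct
Hbb-bt: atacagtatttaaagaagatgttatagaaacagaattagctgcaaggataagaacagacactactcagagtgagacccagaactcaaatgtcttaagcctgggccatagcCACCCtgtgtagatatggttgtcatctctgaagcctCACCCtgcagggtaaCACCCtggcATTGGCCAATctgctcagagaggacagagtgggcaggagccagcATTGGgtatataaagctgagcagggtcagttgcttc
These windows are chrX:150547167-150547416 on the plus strand for Alas2, chr11:32283422-32283671 on the plus strand for Hba-a1, chr7:103827929-103828178 on the minus strand for Hbb-bs and chr7:103813924-103814173 on the minus strand for Hbb-bt.

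Counted over the whole RefSeq window of 300 bases, which runs on to 50 bases past the start, Alas2 held 3 CACCC motifs in a tandem run and 1 AGATAA motif. Hba-a1 held 2 CACCC motifs and 1 CCAAT box, and its window was identical to that of Hba-a2 over all 297 bases that overlap after a shift of 3 bases. Hbb-bs held 1 CACCC motif, which lay within the longer box CCACACCC 93 bases before the start, together with 1 CCAAT box and 1 AGATAA motif. Hbb-bt held 3 CACCC motifs, 3 CCAAT boxes and neither CCACACCC nor AGATAA, and aligned to Hbb-bs at 74.7% of 293 bases. Windows were at hand for 7 of the genes. Among all 32851 promoter windows of this length, CACCC stood in 57.5%, CCAAT in 37.4%, AGATAA in 11.2% and CCACACCC in 3.56%, so the first 2 are common letters in any promoter. These matches are descriptions of letters and not binding sites.

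Library totals ran from 14245178 to 36069968 counts, with a median of 23683553, and a gene's count over its library total is given as CPM, on which 3 counts correspond to 0.0832 to 0.211. For 7 tissues, the summed defining markers (for example hepatocyte genes in liver and B cell genes in spleen) were higher in both libraries of the labelled tissue than in any other tissue; white adipose tissue shares its adipocyte markers with brown and has no list of its own. All intervals below are 95% intervals that cover counting error only.

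The adult globins, which make up the alpha and beta chains of hemoglobin, shared 1 order of tissues in the fed libraries on library totals, from spleen down to muscle. In the fasting libraries the order was the same except that Hba-a2 was higher in white than in brown adipose tissue. With TMM scaling, which allows for libraries that a few genes fill, fed lung stood above fed spleen for Hba-a1 and fed liver below fed muscle for Hba-a2 and Hbb-bs, and in the fasting libraries liver stood above kidney for all 4. Per kilobase of exon, fed spleen held levels of 574 (Hbb-bt) to 2702 CPM (Hbb-bs) for the globins, 68.9 CPM for Alas2, 8.40 CPM for Slc4a1, 0.815 CPM for Epb42 and 0.606 CPM for Klf1, so the globins stood far above the precursor genes; all levels that follow are CPM without this division unless stated. Hbb-bs (chr7:103826534-103828096, minus strand), the adult beta globin with more counts, stood at 2075 CPM in fed and 4947 CPM in fasting spleen. It followed at 1818 and 1788 CPM in fed and fasting lung, at 913 and 909 CPM in heart, and at 414 and 443 CPM in brown adipose tissue. White adipose tissue held 263 and 285 CPM, kidney 168 and 175 CPM, liver 89.7 and 114 CPM, and muscle 80.2 and 63.4 CPM. All neighbours in the order of the fed Hbb-bs levels had counting intervals that did not overlap.

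Hba-a1 (chr11:32283511-32284465, plus strand), an alpha globin, held 709 CPM in fed spleen and 702 CPM in fed lung, and the intervals of these libraries overlapped. In the fasting libraries the same gene stood at 1680.4 CPM in spleen and 682 CPM in lung, so the 2 tissues that were level in the fed mice lay apart in the fasting mice. Hba-a2 (chr11:32296489-32297298, plus strand), the second alpha gene, stood at 461 and 1087 CPM in fed and fasting spleen and at 419 and 418 CPM in lung. Its levels in fed brown and white adipose tissue (72.3 and 71.5 CPM), and in fed liver and muscle (17.9 and 16.5 CPM), had overlapping intervals. The beta pair differed more. Hbb-bt (chr7:103812524-103813996, minus strand), the adult beta globin with fewer counts, stood at 403 and 1121 CPM in spleen and at 239 and 249 CPM in lung. It was the globin that set the spleen apart most: fed spleen over fed lung was 1.69 for Hbb-bt (interval 1.64 to 1.74), against 1.01 for Hba-a1, 1.10 for Hba-a2 and 1.14 for Hbb-bs.

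The paired globin genes are close copies, and reads that fit both can be assigned to either. Of all windows of 100 bases, the read length, 56.5% of those of Hba-a1 stood also in Hba-a2 and 74.5% of those of Hba-a2 in Hba-a1, while 62.6% of those of Hbb-bs stood also in Hbb-bt and 54.8% of those of Hbb-bt in Hbb-bs. The handling of reads that fit more than 1 place was not given in the sources used here, so the split within each pair is uncertain, while the sum of a pair does not depend on it in the same way. Summed over the 4 globins, fed spleen held 3649 CPM and fasting spleen 8835 CPM, and the 14 libraries of the other tissues ran from 103.6 CPM in fasting muscle to 3178 CPM in fed lung.

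**Figure D1:**
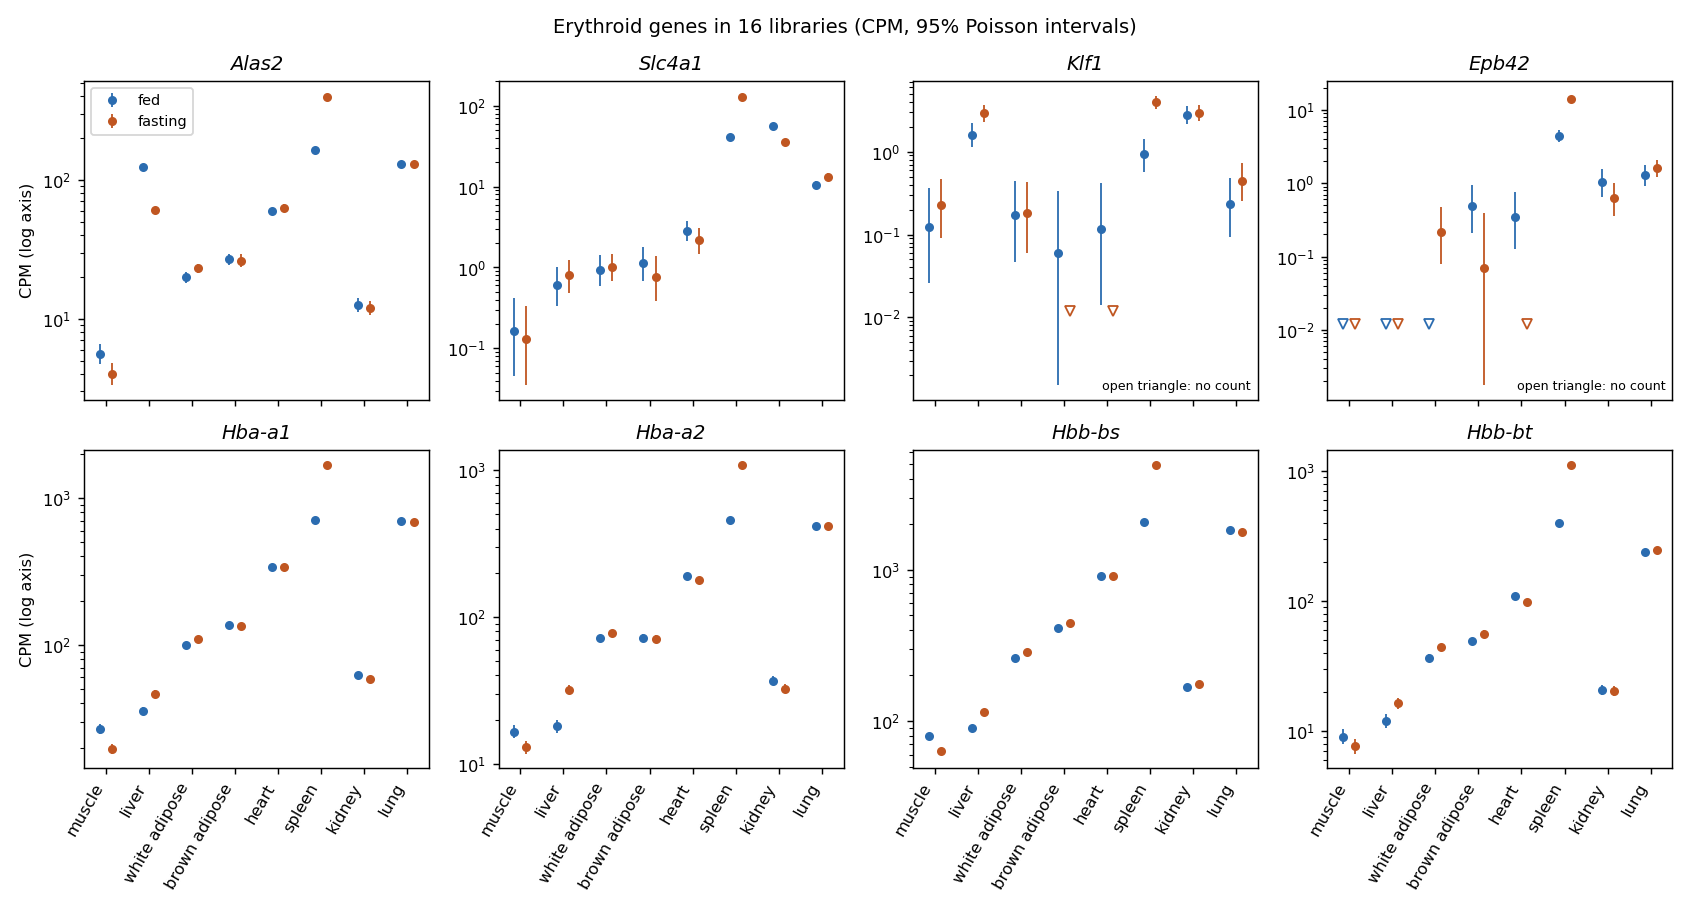
CPM of the 8 erythroid genes (log axis, 1 panel a gene) in the fed and fasting library of each tissue, with 95% Poisson intervals; open triangles mark libraries with no count. On library totals fasting spleen is the highest library in all 8 panels (for Klf1 this does not hold with TMM scaling), and the globin panels share 1 order of tissues in the fed libraries, while Alas2 in liver, Slc4a1 in kidney, and Klf1 in liver and kidney stand off that order.

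Alas2 (chrX:150547375-150570638, plus strand) followed the globins in 7 tissues and left them in liver. It stood at 166 CPM in fed and 398 CPM in fasting spleen, at 131 CPM in both lung libraries, at 59.4 and 63.2 CPM in heart, and at 26.7 and 26.3 CPM in brown adipose tissue. White adipose tissue held 19.9 and 23.1 CPM, kidney 12.6 and 12.03 CPM, and muscle 5.61 and 4.01 CPM. Fed liver, at 125 CPM, overlapped in its interval with fed lung although its globin level was among the lowest, and fasting liver held 60.3 CPM. Fed spleen was 1.26 times fed lung (interval 1.21 to 1.32), the highest other tissue, but with TMM scaling fed liver was the highest and the spleen stood at 0.589 times its level.

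Expressed per 1000 counts of the 4 globins, Alas2 lay between 37.3 and 45.4 in the 14 libraries outside liver. The spleen, with 45.4 (fed) and 45.04 (fasting), was at the upper end of that range, next to fasting white adipose tissue at 44.8. In liver the same ratio was 805 when fed and 289 after fasting. Alas2 overlaps Apex2, a DNA repair gene on the opposite strand, over 311 exon bases, and Apex2 had 293 counts in fed and 680 in fasting liver against 2876 and 1505 for Alas2. Apex2 had more counts than Alas2 in muscle (544 against 135 when fed), white adipose tissue (1099 against 464) and kidney (578 against 282) and in fasting brown adipose tissue (393 against 374), and fewer in the other libraries, and in liver its count went the other way from that of Alas2. The libraries were strand-specific, but the strand setting of the counting was not given in the sources used here, and the part of Apex2 reads in the Alas2 count was not tested. On a scale per kilobase of exon, Alas2 was 1.18% to 1.42% of the globin sum outside liver, and 25.4% in fed and 9.06% in fasting liver.

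Alas1, the enzyme that starts heme synthesis outside the erythroid line, had fewer counts than Alas2 only in spleen. The ratio of Alas1 to Alas2 counts was 0.242 in fed and 0.102 in fasting spleen and ran from 1.27 in fasting heart to 23.3 in fasting muscle in the other 14 libraries.

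Slc4a1 (chr11:102348824-102366203, minus strand), band 3, was high in 2 organs. It stood at 41.1 CPM in fed and 129 CPM in fasting spleen, and at 56.6 CPM in fed and 35.9 CPM in fasting kidney. Lung held 10.5 and 13.3 CPM, heart 2.85 and 2.16 CPM, and brown and white adipose tissue, liver and muscle 0.129 to 1.14 CPM. A shorter form of band 3 is known from acid-secreting cells of the kidney collecting duct, which gives the gene a role outside red cells. Per 1000 globin counts, Slc4a1 was 196 in fed and 126 in fasting kidney, 11.3 and 14.6 in spleen, and 1.10 to 4.23 in the other 12 libraries. Both spleen libraries therefore carried more Slc4a1 relative to globin than those 12 libraries. For Alas2 the spleen libraries also lay above the 12 libraries outside spleen and liver, but by little (45.04 against a highest value of 44.8).

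Epb42 (chr2:121017891-121037072, minus strand), the partner of band 3, was highest in spleen under both treatments, with 4.42 CPM fed and 14.2 CPM fasting. Lung held 1.30 and 1.61 CPM, kidney 1.02 and 0.621 CPM, brown adipose tissue 0.482 and 0.0702 CPM, and heart 0.349 CPM fed and 0 fasting. White adipose tissue had 0 counts fed and 6 counts fasting, and all 4 libraries of muscle and liver had 0 counts. Counting error allows up to 0.242 CPM in a library with 0 counts (fasting heart, upper Poisson bound). Fed spleen was 3.40 times fed lung (interval 2.33 to 5.06), and fed lung and fed kidney had overlapping intervals.

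Klf1 (chr8:84901928-84905291, plus strand), the transcription factor, was the lowest of the genes in spleen and its order of tissues was its own. Kidney held 2.81 CPM fed and 2.95 CPM fasting, liver 1.61 and 2.92 CPM, and spleen 0.927 and 3.95 CPM, from 21 and 110 counts. Muscle, both adipose tissues, heart and lung held 0 to 0.444 CPM, from at most 16 counts a library. Fed kidney and fed liver overlapped in their intervals, as did fed liver and fed spleen, so no order among these 3 stands beyond counting error except between kidney and spleen, where the fed spleen level was 0.330 times that of kidney (interval 0.191 to 0.549). In the fasting libraries the spleen stood at 1.34 times kidney on library totals, with overlapping intervals among spleen, kidney and liver, and with TMM scaling it stood at 0.561 times liver, so no highest tissue can be named for Klf1. No annotated gene overlaps Klf1, and the nearest, Dnase2a, lies 3269 bases away.

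**Figure D2:**
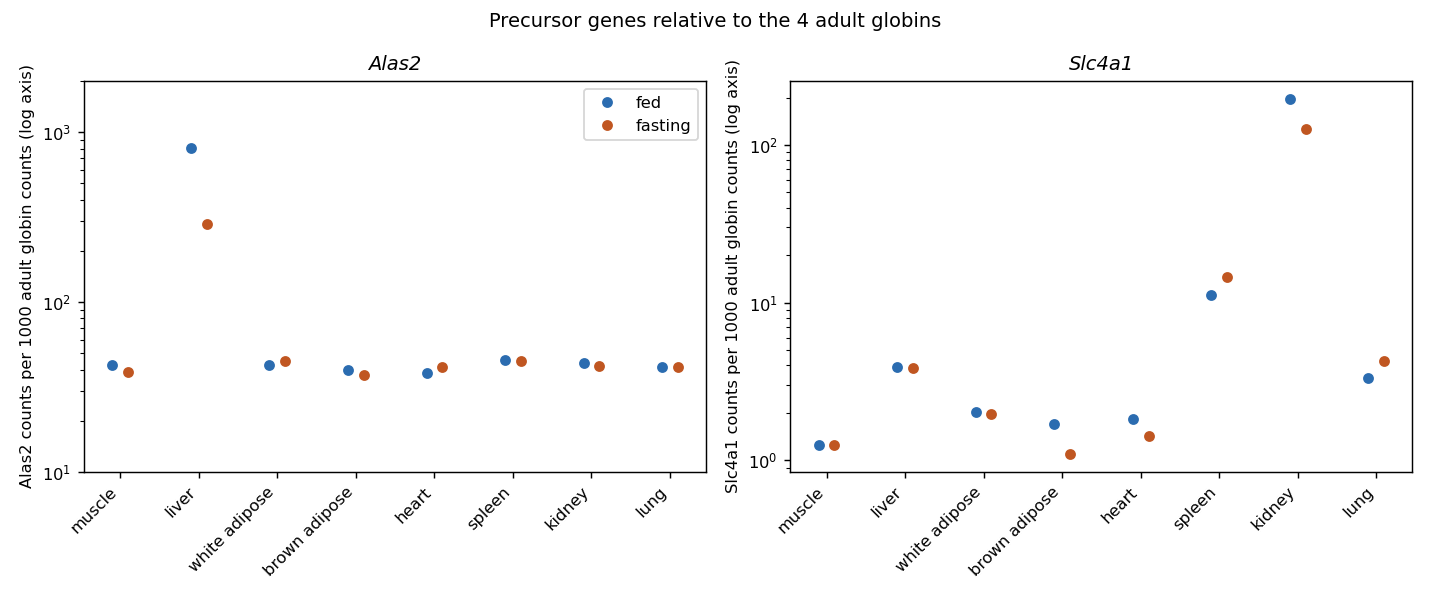
Counts of Alas2 (left) and Slc4a1 (right) per 1000 counts of the 4 adult globins (log axis) in the 16 libraries. Alas2 lies between 37.3 and 45.4 outside liver and reaches 805 in fed liver, while Slc4a1 is raised in both kidney libraries (196 and 126) and, less so, in both spleen libraries (11.3 and 14.6).

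Within the beta-globin pair, Hbb-bt, the gene with fewer counts, took a larger share in spleen than elsewhere. Hbb-bt was 16.3% of the 56140 beta-globin counts in fed spleen (Wilson interval 15.97% to 16.6%) and 18.5% of 168890 in fasting spleen (18.3% to 18.7%). In the other 14 libraries the share ran from 9.84% in fasting heart to 13.4% in fasting white adipose tissue (12.7% to 14.1%), with a median of 11.1%. The lowest bound in spleen was therefore above the highest bound elsewhere, under both treatments, and the fasting spleen lay above the fed spleen. The alpha pair showed no such split: Hba-a2 was 39.4% and 39.3% of alpha-globin counts in fed and fasting spleen, within the 33.6% to 41.9% of the other libraries. The ratio of beta to alpha globin per kilobase was 2.09 and 2.17 in spleen, also within the range elsewhere (1.63 to 2.41).

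**Figure D3:**
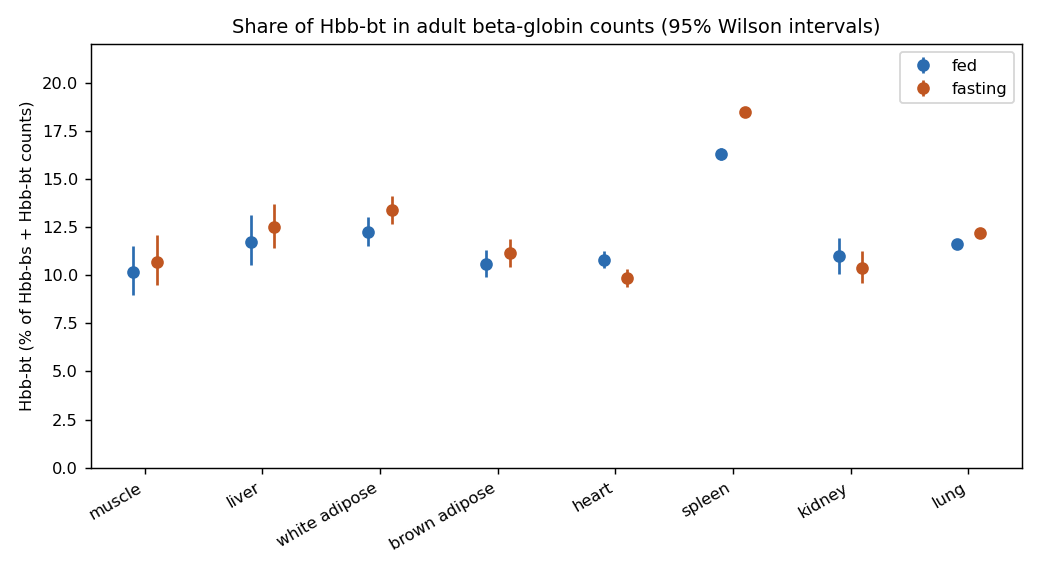
Hbb-bt as a percentage of the summed Hbb-bs and Hbb-bt counts in each library, with 95% Wilson intervals. The spleen libraries, at 16.3% fed and 18.5% fasting, lie above the 14 others, which run from 9.84% to 13.4%.

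Fasting against feeding was compared within each tissue by the two-sided Fisher's exact test used in the study, in which a gene was called when the log2 fold change of CPM plus 0.01 was above 0.5 in size and the unadjusted p was under 0.01. This compares 2 libraries and not the conditions, since each treatment has 1 pool. In spleen all 8 erythroid genes were called higher in the fasting library, against 2.31% of the 29373 genes tested (1.62% were called lower). The alpha globins and Hbb-bs rose least, and evenly: Hba-a1 2.37-fold (interval 2.33 to 2.41), Hba-a2 2.36-fold (2.31 to 2.41) and Hbb-bs 2.38-fold (2.36 to 2.41), with Hbb-bt above them at 2.78-fold (2.72 to 2.85). Alas2 rose 2.40-fold (2.32 to 2.50), with an interval that overlapped those of Hba-a1, Hba-a2 and Hbb-bs but not that of Hbb-bt. The other precursor genes rose more: Slc4a1 3.15-fold (2.93 to 3.39), Epb42 3.21-fold (2.57 to 4.03) and Klf1 4.26-fold (2.66 to 7.16). The intervals of these 3 genes did not overlap those of Alas2, Hba-a1, Hba-a2 and Hbb-bs. Over these 8 genes the log2 fold change had a median of 1.37, against -0.01 over all genes tested. The spread between pools was not measured. When it was set to an assumed CV (SD over mean) of 0.2 in edgeR's exact test, all 8 were still called, beside 0.470% of genes called higher and 0.357% lower, and at a CV of 0.4 none of the 8 was called, beside 0.0409% and 0.160%.

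In liver, the globins and Alas2 went apart. Alas2 fell from 2876 to 1505 counts, a log2 fold change of -1.05 (Fisher's exact test, unadjusted p = 2.44e-122), which was 0.483 times the fed level (interval 0.453 to 0.514). Hba-a2 rose 1.78-fold (1.58 to 2.01) and Klf1 rose 1.82-fold from 37 to 73 counts (1.21 to 2.78, exact p = 0.00294), and these were the 2 genes called higher. Hba-a1 was 1.31 times, Hbb-bs 1.27 times and Hbb-bt 1.37 times the fed level, below the threshold of fold change. With TMM scaling, which raised the log2 fold change of all liver genes by 0.13, Hba-a1 and Hbb-bt passed it. On library totals, against the 2 higher and 1 lower call of 7 erythroid genes with a count, 4.46% of all genes in liver were called higher and 9.52% lower. The shares of all genes with TMM scaling are not given here. At an assumed CV of 0.2 between pools, 0 of the liver calls held, beside 1.56% of genes called higher and 2.12% lower.

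In kidney, Slc4a1 was the gene called, and it was lower: 0.635 times the fed level (interval 0.583 to 0.692, exact p = 3.35e-26), against 3.93% of genes called lower and 2.77% called higher. The globin sum of kidney was 0.994 times the fed level, so the kidney globins did not share in this change. Epb42 in kidney, at 23 and 16 counts, was not called. The Slc4a1 call was lost at the same assumed CV, where 0.620% of genes were called higher and 0.696% lower.

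In the other 5 tissues no erythroid gene was called. Muscle came nearest, with the 4 globins at 0.738 to 0.839 times and Alas2 at 0.715 times the fed level, and there 4.42% of genes were called higher and 9.39% lower. In white adipose tissue the globin sum was 1.10 times the fed level, where 13.2% of genes were called higher and 5.84% lower. In brown adipose tissue the globin sum was 1.05 times the fed level (5.39% of genes called higher and 7.58% lower). Heart and lung had globin sums of 0.984 and 0.987 times the fed level; 4.33% of genes in heart and 2.68% in lung were called higher, and 5.80% and 6.49% lower.

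**Figure D4:**
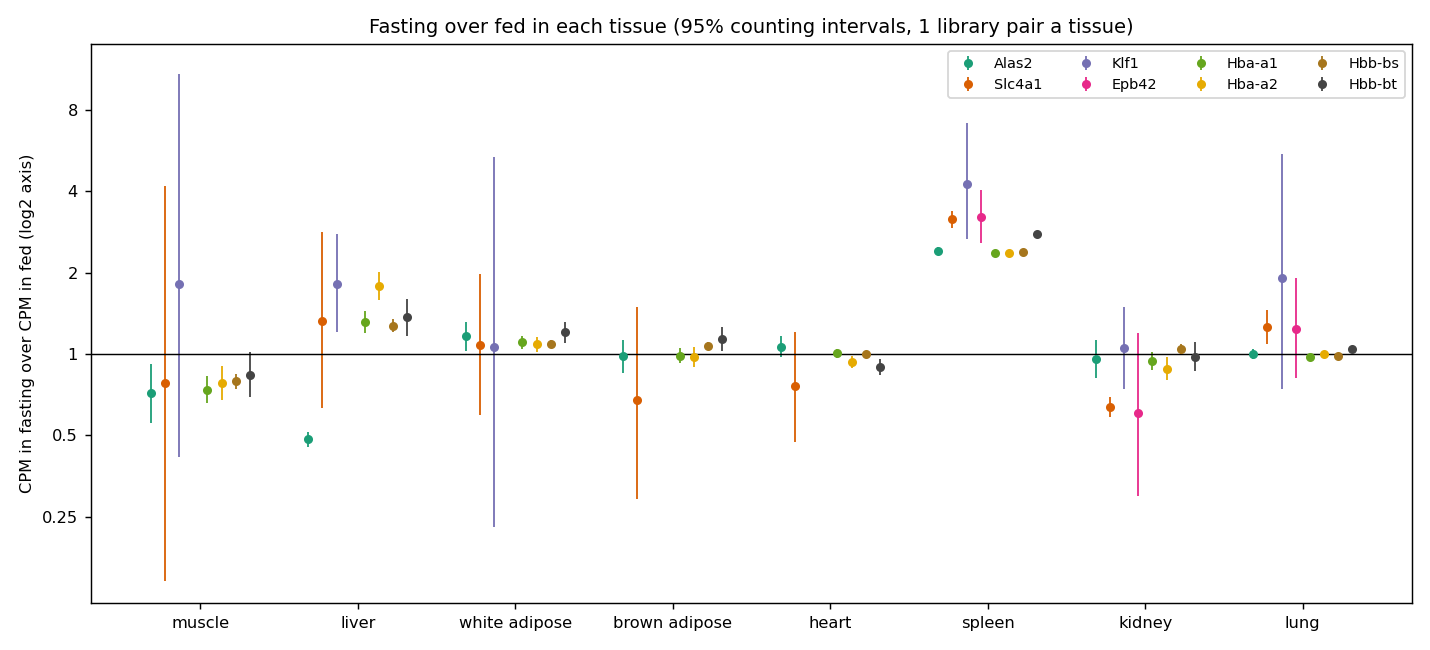
CPM in the fasting library over CPM in the fed library (log2 axis) for each erythroid gene with at least 3 counts in both libraries of a tissue, with 95% counting intervals. All 8 genes lie between 2.36 and 4.26 in spleen, Alas2 lies at 0.483 in liver and Slc4a1 at 0.635 in kidney.

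Across tissues, the 8 pairs of libraries were used as the repeats of the fasting contrast in edgeR's quasi-likelihood test with tissue as a block and Benjamini-Hochberg adjustment. The tissues of a treatment come from the same 3 mice, so their spread is not a spread between animals. Of 17296 genes tested, 2.31% were called higher and 2.08% lower in fasting at an adjusted p under 0.05, 4110 genes having an unadjusted p under 0.05. This near-even split depended on the scaling: 400 genes were higher and 359 lower with TMM, against 313 and 638 on total counts without TMM. Klf1 and Epb42 did not pass the filter on low counts, and of the 6 erythroid genes that did, 0 were called and 0 had an unadjusted p under 0.05. Their log2 fold changes were 0.29 ± 0.17 (SE) for Hbb-bt, 0.19 to 0.23 for the other globins, 0.23 ± 0.27 for Slc4a1 and 0.04 ± 0.19 for Alas2, with adjusted p of 0.317 to 0.917. DESeq2 called 0 of them as well, beside 844 genes called higher and 990 called lower of the 17296. Without the filter, Klf1 stood at 0.79 ± 0.35 (adjusted p = 0.347) and Epb42 at 0.24 ± 0.54 (adjusted p = 0.913). Without the spleen pair, Alas2 stood at -0.14 and Slc4a1 at -0.11. The globin values also rest in part on that pair. Within tissues, on library totals, the median log2 fold change of the globins was 1.25 in spleen. In the other tissues that median ran from -0.35 (muscle) to 0.42 (liver).

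The difference between the fasting effect in spleen and that in the other 7 tissues was tested as an interaction term in the same kind of fit. It called 0% of the 17296 genes higher and 0% lower, with 323 genes at an unadjusted p under 0.05 and 6 residual degrees of freedom. For the erythroid genes the difference (spleen minus the other tissues, log2) was 1.80 ± 0.38 (SE) for Slc4a1, 1.44 ± 0.36 for Alas2, 1.39 ± 0.26 for Hbb-bt, 1.24 ± 0.28 for Hba-a1, 1.20 ± 0.29 for Hbb-bs and 1.19 ± 0.37 for Hba-a2. All 6 had unadjusted edgeR p of 0.000359 to 0.0103 and an adjusted p of 1, which does not show that spleen and the other tissues were alike. DESeq2's Wald test on the same design called 8 genes, among them Hbb-bt (1.38, adjusted p = 0.00588) and Hbb-bs (1.20, adjusted p = 0.0219), and not the other 4 (adjusted p of 0.0689 or more). The spleen side of this term rests on 1 pair of libraries. The other side includes liver, where Alas2 was lower in fasting, and kidney, where Slc4a1 was lower. The differences of these genes therefore do not describe spleen alone.

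The wider set of red cell genes in spleen was read from lists. These lists and the marker lists further on were chosen with earlier results of these data known, so their counts are descriptions. These counts stand beside the 2.31% of all genes called higher and 1.62% called lower in spleen, and the lists hold 4 of the genes already described. Of the 17 genes of the red cell membrane and skeleton, 16 were called higher in fasting spleen and 0 lower, with a median log2 fold change of 1.65; without Slc4a1 and Epb42 the count was 14 of 15. Kel (a blood group protease) went from 1.55 to 7.19 CPM and Rhag (the Rh-associated ammonium channel) from 0.751 to 4.56 CPM; these 2 were picked as examples after their values were seen. Epb41, protein 4.1, rose from 294 to 435 CPM, and Gypc, glycophorin C, stood at 26.9 and 28.2 CPM and was the gene not called. Not all of these genes are confined to red cells: Ank1, ankyrin 1, stood at 406 CPM in fed muscle against 6.62 CPM in fed spleen.

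Of 14 genes of late red cell maturation, 9 were called higher and 0 lower, with a median of 0.61. Bnip3l, which drives the removal of mitochondria from reticulocytes, rose from 127 to 191 CPM. Cat (catalase) and Mkrn1 (an E3 ubiquitin ligase) were not called, at 148 and 192 CPM and at 131 and 185 CPM. Of 13 genes of heme synthesis and mitochondrial iron, 4 were called higher, Alas2, Fech and Slc25a39 among them, and 0 lower, with a median of 0.29 (3 of 12 without Alas2). Fech, ferrochelatase, which inserts iron at the last step, rose 1.66-fold, and Slc25a39, a mitochondrial glutathione carrier, rose from 43.2 to 63.4 CPM. Slc25a37 (mitoferrin 1, the mitochondrial iron importer) stood at 167 and 234 CPM and just missed the threshold at 0.49, and Alas1 stood at 40.1 and 40.4 CPM.

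Of 11 erythroid transcription factors, 5 were called higher (Gata1, Gfi1b, Hemgn, Klf1 and Tal1) and 0 lower, with a median of 0.20 (4 of 10 without Klf1). The 3 highest of the list per kilobase are shared with lymphocytes or other blood cells and were not called: Ikzf1 stood at 511 and 509.9 CPM, Lmo2 at 98.8 and 92.4 CPM, and Bcl11a at 384 and 334 CPM. Of 6 surface receptors and iron uptake genes, 1 was called higher, Epor, the erythropoietin receptor, 2.02-fold, and the median was -0.04. Tfrc, the transferrin receptor, stood at 96.7 and 106 CPM, Slc11a2, an iron transporter, at 36.9 and 34.1 CPM, and Kit, the stem cell factor receptor, at 44.1 and 43.8 CPM.

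In the fit across the 8 tissues, 44 genes of these 5 lists were tested and 2 were called higher and 2 lower, beside 2.31% and 2.08% of all genes. Epb41 was higher in fasting (log2 fold change 0.59 ± 0.11 SE, edgeR adjusted p = 0.0226), as was Bnip3l (0.42 ± 0.06, adjusted p = 0.0131). Ikzf1 was lower (-0.47 ± 0.11, adjusted p = 0.0373), as was Steap3, an iron reductase (-0.79 ± 0.15, adjusted p = 0.0224).

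The embryonic globins, which red cells make before birth, were at or near 0. Hba-x and Hbb-bh0 had 0 counts in all 16 libraries, and Hbb-y and Hbb-bh1 had at most 4 counts a library. The beta-like genes Hbb-bh2 and Hbb-bh3, not counted here as embryonic globins, also had 0 counts in all 16 libraries. The theta globins reached 0.431 CPM (Hbq1a) and 1.26 CPM (Hbq1b) in fasting spleen.

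Beside the rise of the erythroid genes, the markers of other cells of the spleen differed by list: no B cell, cell division or platelet gene was called, neutrophil genes were called in both directions, and the summed markers of red pulp macrophages were higher. The 5 B cell markers summed to 3138 CPM in fed and 3005 CPM in fasting spleen, with 0 called and a median of -0.09, and Cd79b and Cd79a, parts of the B cell receptor, stood at 609 and 600.3 CPM and at 352 and 330.1 CPM. The 6 genes of cell division summed to 354 and 352 CPM with 0 called, with Mki67 at 199.9 and 211 CPM and Top2a at 113 and 100.4 CPM. The 10 platelet and megakaryocyte markers summed to 123 and 144 CPM with 0 called and a log2 fold change above 0 for all 10 (median 0.26), with Ppbp at 51.6 and 59.1 CPM and Pf4 at 16.9 and 17.6 CPM. Of the 10 neutrophil markers, 2 were called higher and 4 lower, their sum going from 166 to 117 CPM, S100a9 from 45.2 to 27.4 CPM and S100a8 from 33.3 to 20.3 CPM. Of the 6 markers of red pulp macrophages, the cells that take up old red cells, Vcam1 was called, from 527 to 1023 CPM, and their sum went from 1572 to 2163 CPM. The other markers of this list were not called: Slc40a1, the iron exporter, stood at 488.6 and 576 CPM, Spic at 102.6 and 128 CPM, Cd5l at 93.5 and 113 CPM, Adgre1 at 132 and 124 CPM and Hmox1, heme oxygenase 1, at 228 and 199 CPM. The part of these cells in the rise of the erythroid genes was not tested.

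**Figure D5:**
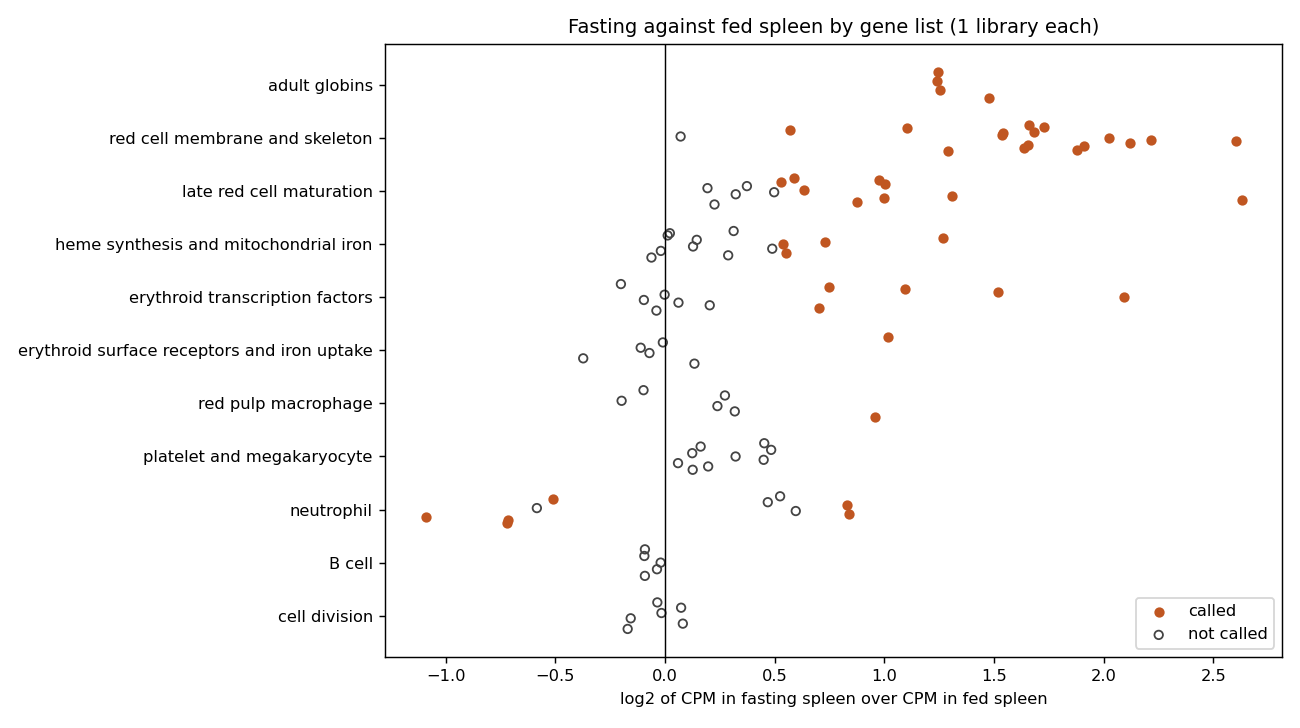
Log2 of CPM in fasting over CPM in fed spleen for the genes of each list with at least 3 counts in both libraries; filled points were called and open points were not. The adult globins and 16 of 17 red cell membrane genes lie to the right, while the B cell and cell division genes lie about 0.

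Across the 16 libraries, the 4 globins went together (Pearson r of log2(CPM + 0.5) of 0.992 to 0.998 between pairs), while r with the globins was 0.778 to 0.802 for Alas2, 0.757 to 0.812 for Epb42, 0.618 to 0.642 for Slc4a1 and -0.02 to 0.04 for Klf1. Among the 20833 genes with at least 1 CPM in 2 or more libraries, genes whose pattern was among the most like the mean of the globins were the platelet chemokine Ppbp (r = 0.973), Nrgn (0.960), Eif4enif1 (0.951) and Macf1 (0.951). Those most like the mean of the 4 precursor genes were Ctse (cathepsin E, 0.943), Hip1r (0.942), Ppp6r1 (0.937), Fcgr4 (0.933) and Akr1b7 (0.932). These values describe libraries that share tissues and pools of mice, and carry no test. Ctse went from 26.2 to 37.1 CPM in spleen, and Hip1r, a clathrin adaptor, stood at 242.3 and 231.8 CPM.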

How the data were processed

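RNA from pooled tissue of 3 mice was sequenced in strand-specific libraries with reads of 100 bases, 1 library for each of 8 tissues and 2 treatments. Per the study's methods and the submitters' processing notes, the authors used fastp 0.23.2 for trimming and FastQC 0.11.8 for quality control, HISAT2 2.2.1.0 for alignment to GRCm38, and featureCounts of Subread 2.0 with GENCODE vM24 for read counts of genes. The deposited table holds raw counts per gene and an exon length, with no normalization by the authors, and 0 columns lacked a sample. The members and all gene lists were chosen with earlier results of these data known.

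Gene IDs were matched to symbols (55144 of 55385), CPM was computed on library totals, and positions come from GENCODE vM21 (GRCm38). Poisson, Wilson and exact conditional intervals used a level of 95%. Fisher's exact test used scipy 1.17.1; models across all genes used edgeR 4.0.16 (TMM, filterByExpr, quasi-likelihood, Benjamini-Hochberg) and DESeq2 1.42.0 as an alternative. The main edgeR quasi-likelihood fits and Fisher's exact test were tried on simulated data. DESeq2 and edgeR's exact test at an assumed CV were not. Named genes were the members; in each list, genes called across tissues and the 3 highest per kilobase in fed spleen (2 for markers of blood and spleen cells); the embryonic globins by range; and the 5 most alike genes for each class mean; other genes named were chosen after their values were seen. Alternatives covered the scaling, pseudocount, filter, test, assumed spread between pools, tissues left out and paralogs summed. Some genes that this rule or these lists hold are not reported here.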

Additional observations from a re-analysis of the deposited data

Results flagged for a closer look

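In DESeq2's Wald test of the difference between the fasting effect in spleen and that in the other 7 tissues, Hbb-bt (log2 difference 1.382, adjusted p = 0.00588) and Hbb-bs (1.197, adjusted p = 0.0219) passed an adjusted p of 0.05. In edgeR's quasi-likelihood test both had an adjusted p of 1. All of these tests rest on the same 1 pair of spleen libraries.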

How the results depend on the processing

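The fit across tissues pairs the fed and fasting library of each tissue by a tissue block, and no further pairing was possible because the labels carry no replicate numbers. With the block 759 genes were called (400 higher and 359 lower), 1834 with DESeq2, 131 without both adipose tissues, 1 with no tissue block, and 156 (without brown adipose tissue) to 721 (without spleen) with 1 tissue left out. On total counts without TMM 313 genes were called higher and 638 lower, and on totals without the top 10 genes and globins 321 and 725. The erythroid genes called stayed at 0 throughout. The log2 fold change of Alas2 was -0.003271 on totals without the top 10 genes and globins, and -0.1426 (without spleen) to 0.1885 (without liver) with 1 tissue left out, and that of Slc4a1 was -0.1138 (without spleen) to 0.4197 (without kidney). Leaving out each of the other tissues from the test of spleen against them, summing paralogs in it, and rescaling the fasting levels were chosen after seeing the data. That test called 2 erythroid genes and 8 genes in all with DESeq2, and 18 genes with no filter.

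Within tissues, the number of erythroid genes called in liver was 3, and became 5 with TMM or DESeq2 factors and 0 at a CV between pools of 0.2 or 0.4. The TMM and DESeq2 factors moved all liver genes by 0.13 and 0.12 (log2). The number called went from 8 to 0 in spleen at 0.4, and from 1 to 0 in kidney at 0.2 and 0.4. For liver and kidney no share of all genes called is given with these factors or at 0.4. The counts of erythroid genes under those settings therefore stand without a comparison. Log2 fold changes near 0 changed sign with TMM and with DESeq2 factors: -0.01226 and -0.02135 for Klf1 in white adipose tissue, 0.04195 and 0.04313 for Hbb-bs in heart, and 0.004434 and 0.02692 for Hbb-bt in kidney. In lung they were 0.0742 and 0.06914 for Alas2, 0.03527 and 0.03021 for Hba-a1, 0.07366 and 0.0686 for Hba-a2, and 0.05473 and 0.04967 for Hbb-bs. Hba-a1 in heart was -0.02155 without the top 10 genes and globins and -0.02751 with paralogs summed. TMM factors moved all genes by 0.13 in liver and -0.10 in white adipose tissue (log2).

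The level in fed spleen over the highest other tissue was, with TMM and DESeq2 factors, 0.5887 and 0.5986 for Alas2, 0.5202 and 0.5379 for Slc4a1, and 1.121 and 1.112 for Hbb-bs, and 0.984 with DESeq2 factors for Hba-a1. In the fasting libraries it was 3.045 for Alas2, 3.599 for Slc4a1, 1.34 for Klf1, 8.804 for Epb42, 2.466 for Hba-a1, 2.6 for Hba-a2, 2.767 for Hbb-bs and 4.51 for Hbb-bt. In those libraries with TMM and DESeq2 factors it was 2.741 and 2.769 for Alas2, 2.564 and 2.589 for Slc4a1, 0.5613 and 0.5669 (against liver) for Klf1, 8.353 and 8.246 for Epb42, 2.339 and 2.31 for Hba-a1, 2.467 and 2.435 for Hba-a2, 2.625 and 2.591 for Hbb-bs, and 4.279 and 4.225 for Hbb-bt. The cause of these shifts was not tested. Of the values recomputed for single genes, 665 kept their direction and side of the threshold, 19 changed sign, and 17 calls were lost and 7 gained. Of the main counts and levels recomputed, 124 stayed near the main count or within the counting interval of the main level, and 50 did not. With 1 library a group, no value has an error between pools, and Klf1 and Epb42 rest on under 30 counts in most libraries.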
